A study of Mus musculus with 16 samples.

Results

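Chemokine receptors are described here in 2 progenitors of mouse bone marrow (BM), the macrophage-dendritic cell progenitor (MDP) and its descendant, the common dendritic cell progenitor (CDP). The receptors are *Ccr1*, *Ccr2*, *Ccr3*, *Ccr7*, *Cx3cr1*, *Cxcr2*, *Cxcr3*, *Cxcr4* and *Cxcr5*, taken as every non-control probe that the array files name by one of these symbols. These 9 genes, of 31093 gene names on the array, had 11 probes of 39429. *Cx3cr1* had 3 probes, and every other receptor had 1.

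Total RNA was profiled in 16 samples, 4 for each of 4 groups, on single-color (Cy5) Agilent mouse arrays. All mice were C57/Bl6 females. MDPs and CDPs from tumor-bearing mice came from animals with orthotopic mammary tumors of the PyMT-B6 line, grown to a diameter of 1.5 cm, and the controls were MDPs and CDPs of age-matched mice without tumors. PyMT-B6 is a cell line started from a mammary tumor of an MMTV-PyMT mouse, so the tumors are transplants of 1 line. Each sample pooled 2 mice. Cells were sorted after lineage depletion, and the markers of the gates are not given in the sources used here. Samples carry the numbers 2 to 5 in each group and are called replicates 2 to 5. The arrays lay on 4 slides of 4. Slides 2 and 3 held 1 array of every group, whereas slide 1 held 2 MDP arrays and no CDP array of tumor-bearing mice, and slide 4 held 2 CDP arrays and no MDP array of tumor-bearing mice.

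Chemokine receptors are G protein-coupled receptors that steer cells along gradients of small secreted proteins, the chemokines. They signal through inhibitory G proteins and the G beta-gamma subunits, and are switched off by receptor kinases (GRKs), arrestins and regulators of G protein signaling (RGS proteins). In BM, CXCR4 holds hematopoietic cells near stromal CXCL12, CXCR2 and CCR2 support the exit of neutrophils and of monocytes, and CX3CR1, the fractalkine receptor, is carried by monocytes, macrophages and their progenitors.

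The probes that the results below turn on read short stretches of each transcript, and the first 30 of their 60 bases are shown, 5′ to 3′, as the array files print them. The 3 *Cx3cr1* probes come first, because 2 of them overlap, and the capitals mark the 25 bases within these stretches that both contain. The remaining probes are those of the receptors that passed a test or were above background in 1 group alone.
Cx3cr1 A_52_P99810: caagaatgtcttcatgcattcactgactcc
Cx3cr1 A_55_P2007964: cgtgcCTAGAGTGTGTCTATCCCACTTGTA
Cx3cr1 A_55_P2054362: CTAGAGTGTGTCTATCCCACTTGTAattct
Ccr2 A_51_P245989: gaagcagggacagaattcttgctttgaaaa
Cxcr2 A_52_P559975: aagggtggggagttcgtgtagaagacacag
Cxcr3 A_51_P319022: gccaggcgttgtcagcactgaatgtgccca
Ccr1 A_52_P616356: agtataagatgttatgtcaaaaaattaaat

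The overlapping *Cx3cr1* probes share 55 of their 60 bases, so they are close to 1 measurement, and A_52_P99810 is the separate one. No other pair among the 11 probes shared more than 8 bases in a row. None of the 11 probes held a 20-base stretch of a probe for another gene. On mouse build mm9, the positions printed in the array files put the *Cx3cr1* probes on chromosome 9 at 119959018-119959077, 119957811-119957870 and 119957806-119957865, in the order shown. The stretches for *Ccr1* (123877790-123877849), *Ccr3* (123945225-123945284) and *Ccr2* (124022948-124023007) lie on the same chromosome, and that of *Cxcr5* lies at 44320071-44320130. *Cxcr2* (74206886-74206945) and *Cxcr4* (130485079-130485138) were measured on chromosome 1, *Ccr7* on chromosome 11 (99005551-99005610) and *Cxcr3* on chromosome X (98926920-98926979). Whether a probe lies in an exon, an intron or a UTR was not analysed here.

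Levels are given as the log2 of the background-subtracted signal minus the 75th percentile of its array, so a level of 0 equals that percentile, and a difference of 1 is a doubling. The percentile, as an intensity, ran from 3618 to 4654 over the arrays. Between 58.8% and 71.5% of probes were well above background on an array, from 58.8% to 64.3% on slide 1 and from 69.4% to 71.5% on slide 4. Testing was limited to probes detected (marked as well above background by the scanner software) on 3 or 4 arrays of some group, 27433 in all, 8 of the 11 receptor probes among them. The 3 that were not were those of *Ccr1*, *Ccr3* and *Cxcr5*. Differences were tested with limma in 1 fit of the 4 group means, with p-values adjusted by Benjamini-Hochberg over all 27433 probes, and a probe was called at an adjusted p under 0.05 with a fold change above 1.5. Among the genes that define these progenitors, *Flt3* and *Csf1r* were above background on all 16 arrays, as was *Kit*, which fell in CDPs of tumor-bearing mice (log2 change −1.34, limma adjusted p = 0.00427). In bulk samples of this kind, fewer cells with a transcript and less transcript per cell cannot be told apart.

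Between MDPs and CDPs of tumor-free mice, *Ccr2* was higher in CDPs and *Cxcr2* was lower, and these were the 2 receptor probes of 8 that were called, against 6.10% of all probes tested (2.94% higher and 3.16% lower in CDPs). With tumors, 2 of the 8 were called, *Ccr2* and *Cxcr3*, both higher in CDPs, against 7.26% of all probes (3.56% higher). At an unadjusted p under 0.05, limma gave 6 of the 8 probes without tumors (4 of 6 genes) and 3 with tumors (3 of 6 genes), against 17.1% and 27.8% of all probes. Between tumor-bearing and tumor-free mice limma called no receptor probe in CDPs (0 of 8, against 1.80% of all probes) or in MDPs (0 of 8, against 0.0656% of all probes). Each group serves in more than 1 of these comparisons, so they are not independent. At an unadjusted p under 0.05, limma gave 4 of the 8 probes in each of these tumor comparisons, against 13.7% of all probes in CDPs and 10.4% in MDPs. They came from 2 of 6 genes in CDPs, *Cx3cr1* on all 3 probes and *Cxcr2*. In MDPs they came from 3 of 6 genes, *Cx3cr1* on its overlapping pair, *Ccr2* and *Ccr7*, so repeated probes of 1 gene weigh on both counts. The methods' t-test after Benjamini-Hochberg adjustment also called none in either. *Cx3cr1* was nonetheless lower in every CDP sample of tumor-bearing mice than in any of tumor-free mice, on each of its 3 probes.

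**Figure D1:**
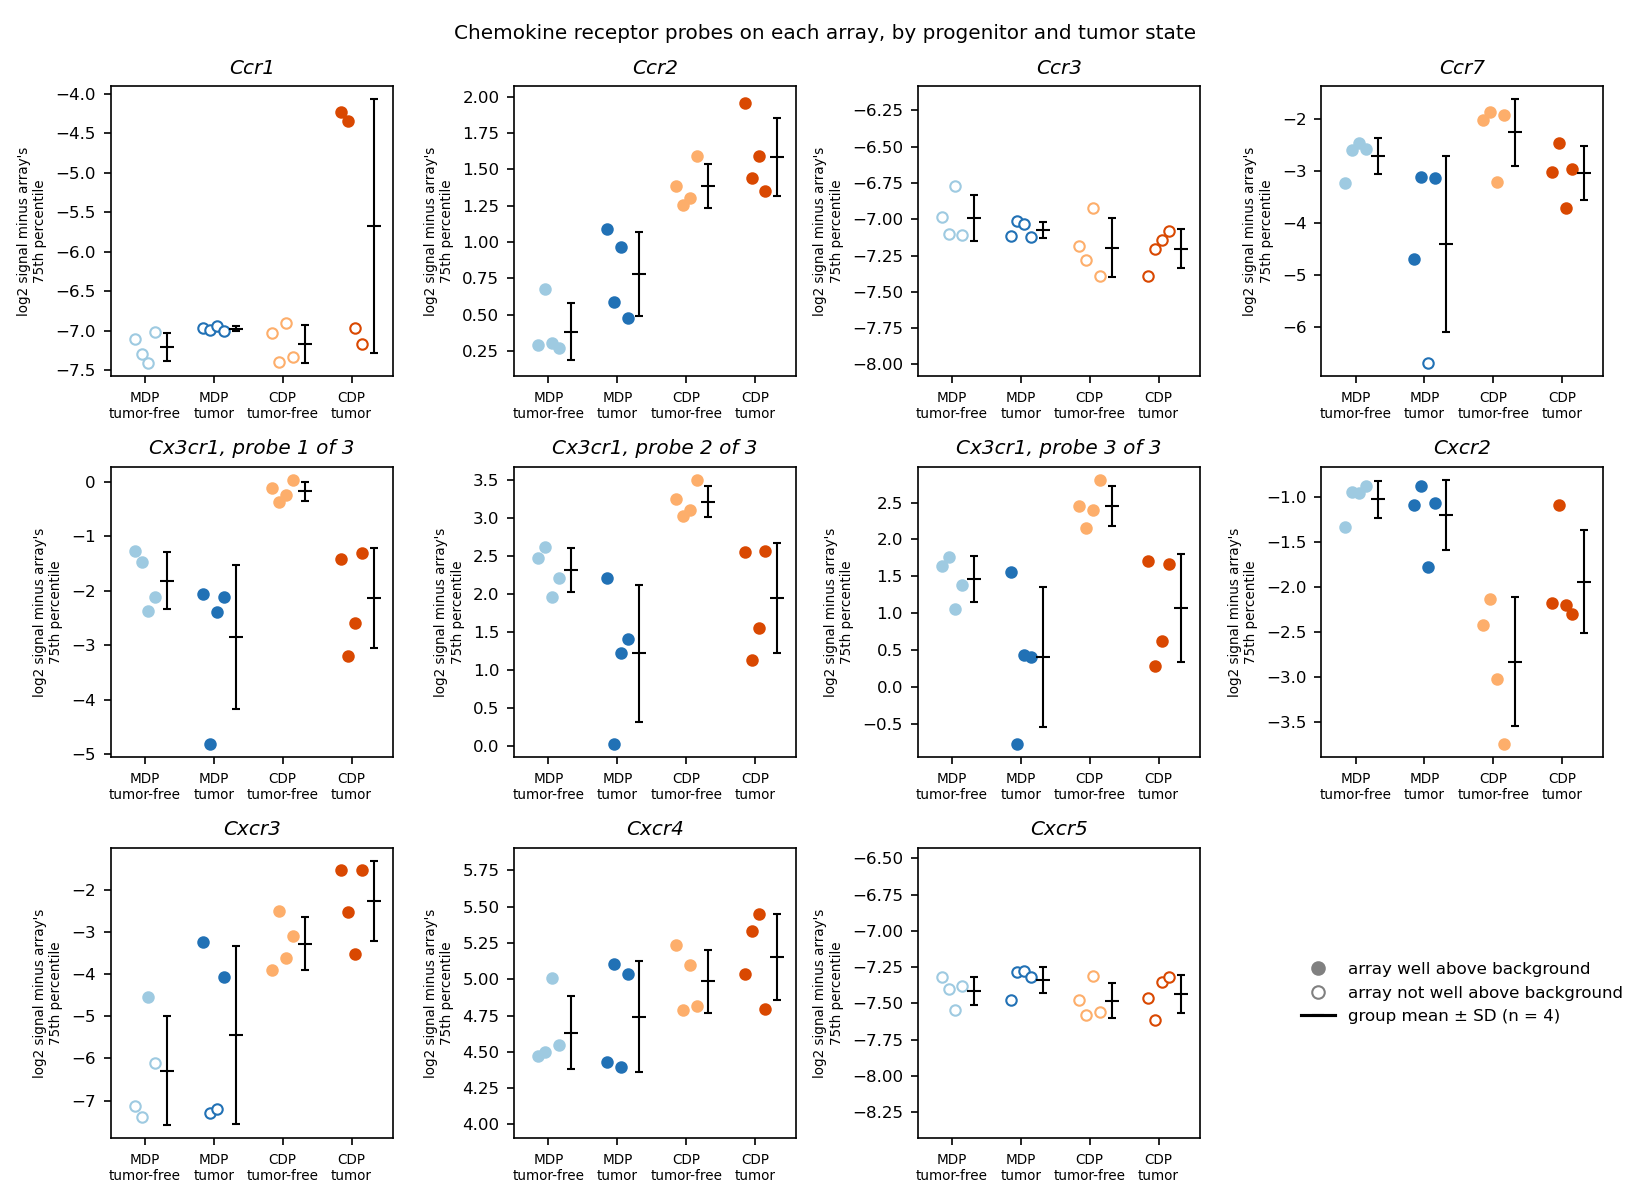
Log2 signal minus the array's 75th percentile (vertical axis, a scale of its own in each panel) for the 11 receptor probes on the 16 arrays, grouped by progenitor and tumor state. Filled points were well above background, open points were not, and bars give the group mean ± SD (n = 4); *Ccr3* and *Cxcr5* are open throughout, and the 3 *Cx3cr1* panels have the same order of groups.

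CX3CR1 is a known surface marker of MDPs. On the separate probe, A_52_P99810, *Cx3cr1* levels in CDPs of tumor-free mice were −0.12, −0.37, −0.24 and 0.03 (replicates 2 to 5). In CDPs of tumor-bearing mice the same probe read −1.42, −3.20, −2.60 and −1.31. The highest tumor-bearing sample thus lay below the lowest tumor-free one, and the means were −0.17 ± 0.17 without and −2.13 ± 0.92 with tumors (SD, n = 4 each). The difference of −1.96 (SE 0.56, 95% confidence interval −3.17 to −0.75), or 3.88-fold, did not pass the test (limma adjusted p = 0.104, and 0.0272 after normexp background correction).

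The overlapping pair of probes went the same way. A_55_P2007964 read 3.24, 3.02, 3.10 and 3.50 in CDPs of tumor-free mice and 2.55, 1.13, 1.54 and 2.56 in those of tumor-bearing mice. Its change was −1.27 ± 0.41 (SE, limma adjusted p = 0.146), and that of A_55_P2054362 was −1.38 ± 0.43 (limma adjusted p = 0.128). Again neither pair of groups overlapped, which held for 3 of the 8 receptor probes, all of 1 gene and all lower, and for 11.1% of all probes in this comparison (5.35% lower). Slides 2, 3 and 4 each held CDPs of both kinds, and the change was negative within each of them on all 3 probes, from −2.36 to −1.19 on A_52_P99810 and from −1.78 to −0.68 on the other 2.

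In MDPs, *Cx3cr1* levels on A_52_P99810 were −1.28, −1.48, −2.37 and −2.12 without tumors and −2.05, −4.81, −2.39 and −2.11 with tumors. The groups overlapped, and replicate 3 of the tumor-bearing mice was the lowest of all 16 arrays on each of the 3 probes. The changes were −1.03 ± 0.56 (SE), −1.10 ± 0.41 and −1.06 ± 0.43, with limma adjusted p = 0.534, 0.409 and 0.443. Without replicate 3 of the tumor-bearing MDPs they were −0.37, −0.70 and −0.66. The tumor changes of CDPs and MDPs were not shown to differ: the difference of the changes on A_52_P99810 was −0.93 (95% confidence interval −2.64 to 0.78, limma adjusted p = 0.748).

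Among the 4 groups, the order of the *Cx3cr1* means was the same on all 3 probes, with CDPs of tumor-free mice highest, then MDPs of tumor-free mice, then CDPs and last MDPs of tumor-bearing mice. Without tumors, all CDP samples were above all MDP samples on each probe, by 1.64 ± 0.56 (SE), 0.90 ± 0.41 and 0.99 ± 0.43, which did not pass the test (limma adjusted p = 0.115, 0.272 and 0.237). With only these 2 groups in the fit, all 3 probes were called. With tumors, CDPs and MDPs overlapped on each probe, and the differences were 0.71, 0.73 and 0.67 (limma adjusted p = 0.372, 0.229 and 0.278). The levels in MDPs of tumor-free mice and in CDPs of tumor-bearing mice, neighbors in that order, overlapped on all 3 probes.

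**Figure D2:**
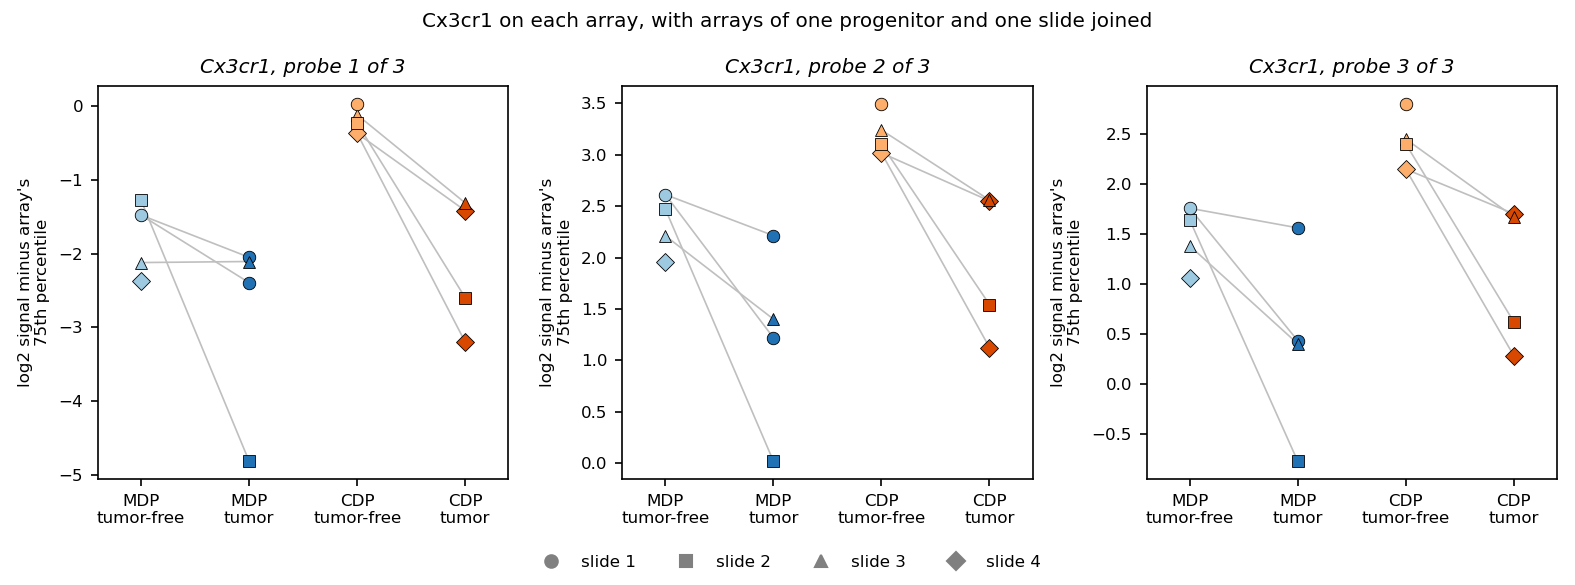
Log2 signal of the 3 *Cx3cr1* probes (vertical axes) in the 4 groups, each point 1 array and each shape 1 slide, with lines joining tumor-free and tumor-bearing arrays of the same progenitor and slide. All lines of the CDPs slope down on each probe, and the steepest MDP line is that of slide 2, which ends at replicate 3 of the tumor-bearing mice.

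Among markers of conventional DCs, *Cd209a* fell in CDPs with tumors (log2 change −3.25, limma adjusted p = 0.00255) and was the only one of the list called there. *Clec9a* (−3.45, adjusted p = 0.111), *Itgax* (−2.78, 0.136), *Zbtb46* (−0.55, 0.711) and *H2-Ab1* (−0.10, 0.955) did not pass the test. The summed signal of the 6-gene list (processed signal over the array's 75th percentile; these 5 and *Xcr1*) ran from 5.76 to 8.26 in CDPs of tumor-free mice and from 0.685 to 2.88 in CDPs of tumor-bearing mice. In MDPs it ran from 2.21 to 2.85 and from 1.14 to 2.44. *Cd209a* fell with tumors in MDPs too (−3.55, limma adjusted p = 0.0113), from 4 arrays above background to 0. *Clec9a* (−3.77, adjusted p = 0.259), *Itgax* (−1.34, 0.577), *Zbtb46* (−0.83, 0.55) and *H2-Ab1* (−0.37, 0.76) did not pass the test there. Of the 6 genes, 5 were above background on some array of the CDPs in either state, and *Xcr1* was above background on none of the 16 arrays. The part of these markers in the *Cx3cr1* values was not tested.

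CCR2, the receptor for CCL2, is needed for monocytes to leave BM. *Ccr2* was well above background on all 16 arrays. Its levels were 0.29, 0.67, 0.30 and 0.27 in MDPs and 1.39, 1.26, 1.31 and 1.60 in CDPs of tumor-free mice. With tumors they were 1.09, 0.59, 0.96 and 0.48 in MDPs and 1.96, 1.44, 1.59 and 1.35 in CDPs. In both states every CDP sample was above every MDP sample.

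*Ccr2* was thus 2.0-fold higher in CDPs than in MDPs of tumor-free mice (log2 difference 1.0 ± 0.18 SE, limma adjusted p = 0.00384) and 1.75-fold higher in tumor-bearing mice (0.80 ± 0.18, limma adjusted p = 0.0149). Within slides the first difference ran from 0.92 to 1.12 over all 4 slides, and the second was 1.0 and 0.87 on slides 2 and 3. The tumor-bearing call was lost without replicate 2 of the tumor-bearing CDPs (0.68, adjusted p = 0.0541) and with only the groups compared in the fit (adjusted p = 0.0973). From tumor-free to tumor-bearing mice, *Ccr2* differed by 0.40 ± 0.18 (SE) in MDPs (limma adjusted p = 0.475) and by 0.20 ± 0.18 in CDPs (adjusted p = 0.732), with overlapping groups in both. The means of the monocyte genes *F13a1*, *Fcgr1*, *Ms4a6c* and *Cd14*, each above background on all 16 arrays, were also higher in CDPs than in MDPs in both states, for *F13a1* 3.61 against 3.39 without tumors and 3.98 against 3.49 with tumors, and for *Fcgr1* −0.72 against −1.48 and 0.70 against −1.78. Their part in the *Ccr2* difference was not tested.

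CXCR2, the receptor for CXCL1, CXCL2 and related ligands, mobilizes neutrophils from BM. Its transcript was well above background on all 16 arrays. *Cxcr2* levels were −1.34, −0.95, −0.96 and −0.88 in MDPs and −2.42, −2.13, −3.03 and −3.75 in CDPs of tumor-free mice. The groups did not overlap, and *Cxcr2* was 3.49-fold lower in CDPs (log2 difference −1.80 ± 0.35 SE, limma adjusted p = 0.00583). The difference was negative on all 4 slides, from −2.80 to −1.18.

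With tumors, *Cxcr2* read −1.10, −0.89, −1.78 and −1.07 in MDPs and −2.18, −1.10, −2.20 and −2.30 in CDPs. The CDP mean was still the lower, but replicate 3 of the CDPs reached the level of the MDPs, and the difference of −0.74 ± 0.35 (SE) was not called (limma adjusted p = 0.181). Set against tumor-free mice, *Cxcr2* differed by 0.89 ± 0.35 (SE) in CDPs of tumor-bearing mice (limma adjusted p = 0.246) and by −0.18 ± 0.35 in MDPs (adjusted p = 0.823). The difference between these changes was 1.07 (95% confidence interval 0.02 to 2.11, limma adjusted p = 0.748), the only one of the 8 receptor probes with an unadjusted p under 0.05 for it, against 4.03% of all probes. No receptor probe was called for that difference by limma, against 0.0146% of all probes. Leaving out replicate 3 of the tumor-bearing CDPs or replicate 5 of the tumor-free CDPs brought the CDP change to 0.61 and 0.59.

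In tumor-free mice the neutrophil genes *Mmp8* (log2 difference 0.96, limma adjusted p = 0.0452) and *Retnlg* (2.45, adjusted p = 0.0216) were higher in CDPs than in MDPs, and none of the list was called lower. With tumors *Mmp8* was higher in CDPs (1.80, adjusted p = 0.00102) and *Retnlg* differed by −0.58 (adjusted p = 0.482), and *Mmp8* rose in CDPs from tumor-free to tumor-bearing mice (1.87, adjusted p = 0.0036). The summed signal of 9 neutrophil genes on the array (8 above background in each group, *Mmp9* on no array) was 17.3 to 27.4 in MDPs and 18.2 to 34.4 in CDPs of tumor-free mice, and 16.1 to 27.6 and 29.1 to 37.4 in those of tumor-bearing mice. Most of that sum was *Csf3r*, the G-CSF receptor, which progenitors also carry, with means of 4.34 and 4.40 in MDPs and CDPs without tumors. Their part in the *Cxcr2* values was not tested.

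CXCR4, the receptor for CXCL12, retains hematopoietic cells in BM. *Cxcr4* was well above background on all 16 arrays, with levels of 4.47, 4.50, 5.01 and 4.55 in MDPs and 5.24, 4.79, 5.10 and 4.82 in CDPs of tumor-free mice. With tumors it read 4.43, 5.11, 4.40 and 5.04 in MDPs and 5.04, 5.33, 5.45 and 4.80 in CDPs. All 4 groups overlapped. The tumor change was 0.11 in MDPs (95% confidence interval −0.35 to 0.57) and 0.17 in CDPs (−0.29 to 0.63), the latter −0.12 after quantile normalization. CDPs exceeded MDPs by 0.35 (−0.11 to 0.81) without tumors and by 0.41 (−0.05 to 0.87) with tumors, and none of these differences was called (limma adjusted p = 0.826, 0.81, 0.491 and 0.211, in the order given).

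CCR1 and CCR3 are receptors of inflammatory chemokines, CCR1 on neutrophils, monocytes and macrophages and CCR3 on eosinophils and basophils. *Ccr1* was above background on 2 of 16 arrays, replicates 2 and 3 of the CDPs of tumor-bearing mice, at −4.23 and −4.34. Replicates 4 and 5 of that group read −6.96 and −7.16, within the range of the other 12 arrays, −7.41 to −6.90, none of which was above background. The 2 arrays with signal were both on slide 4, whose other arrays, a CDP and an MDP sample of tumor-free mice, read −7.40 and −7.41. The probe was therefore not tested, and no fold is given.

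*Ccr3* was above background on no array, with levels of −7.39 to −6.77. Eosinophil and basophil genes were detected in the same samples: the summed signal of 4 eosinophil genes ran from 0.266 to 4.06 over the groups, each gene above background in every group, and that of 5 basophil and mast cell genes from 0.777 to 5.27, with *Ms4a2* on no array. The eosinophil sum reached its highest values in MDPs of tumor-bearing mice, 1.57 to 4.06, where *Ccr3* read −7.12 to −7.01.

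CCR7 guides mature DCs and naive T cells to lymph nodes. *Ccr7* levels were −3.23, −2.59, −2.47 and −2.57 in MDPs and −2.02, −1.87, −3.21 and −1.93 in CDPs of tumor-free mice. With tumors they were −4.70, −3.12, −6.70 and −3.14 in MDPs and −3.03, −2.45, −3.72 and −2.96 in CDPs. Of the 16 arrays, only replicate 4 of the tumor-bearing MDPs, at −6.70, was not above background, and it was the array with the lowest share of detected probes (58.8%). The mean was lower with tumors in both progenitors, by −1.70 ± 0.63 (SE, limma adjusted p = 0.411) in MDPs and by −0.78 ± 0.63 (adjusted p = 0.691) in CDPs. Neither was called, the groups overlapped in both, and without replicate 4 the MDP change was −0.94. CDPs and MDPs differed by 0.46 without tumors and by 1.37 with tumors (limma adjusted p = 0.925 and 0.176).

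CXCR3, the receptor for CXCL9, CXCL10 and CXCL11, is best known on activated T cells and NK cells. *Cxcr3* was above background on all 8 CDP arrays, on 1 of 4 MDP arrays of tumor-free mice and on 2 of 4 of tumor-bearing mice. Levels were −7.12, −7.40, −4.54 and −6.10 in MDPs and −3.90, −2.49, −3.61 and −3.10 in CDPs of tumor-free mice, with no overlap. With tumors they were −3.23, −7.29, −7.21 and −4.06 in MDPs and −1.53, −2.53, −3.51 and −1.53 in CDPs, where replicate 2 of the MDPs lay above replicate 4 of the CDPs.

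The CDP mean of *Cxcr3* exceeded the MDP mean by 3.01 ± 0.89 (SE) in tumor-free mice, which was not called (limma adjusted p = 0.0626), and by 3.17 ± 0.89 in tumor-bearing mice, which was (adjusted p = 0.0449). The call in 1 state alone does not show that the states differ, and the difference between the 2 values was 0.16 (95% confidence interval −2.56 to 2.87). The folds, 8.08 and 9.01, rest on MDP means that include arrays at background, and with normexp background correction the log2 differences were 0.72 and 1.57. *Cxcr3* entered the test only through CDPs, where it was higher, so its p-values between the progenitors are not independent of that choice. Within slides the difference was positive on all 4 slides without tumors (2.05 to 4.30) and on both slides with tumors (2.53 and 3.77). The call in tumor-bearing mice was lost after quantile normalization (adjusted p = 0.0525), without a filter (0.064), with the slide as a block (0.12), with a replicate block (0.0711), and without MDP replicate 3 or 4 or CDP replicate 2, 3 or 5 (0.087 to 0.145), whereas the difference in tumor-free mice was called with the slide as a block (adjusted p = 0.0269). The summed signal of 9 genes of T cells and NK cells was 14.6 to 14.9 in MDPs and 2.82 to 4.59 in CDPs of tumor-free mice, and 15.1 to 18.5 and 3.56 to 4.68 in those of tumor-bearing mice. *Nkg7*, a granule gene, made up most of the difference, with mean levels of 3.74 in MDPs and 0.62 in CDPs without tumors, and was the only gene of the list called. The others tested were not lower in CDPs with tumors, from 0.03 for *Klrb1c* to 2.11 for *Cd3d* (limma adjusted p = 0.95 and 0.0581), and ran from −0.23 for *Cd4* to 1.75 for *Thy1* without tumors. *Cd3g* and *Cd8a* were above background on 3 and 1 of 16 arrays. Their part in the *Cxcr3* values was not tested. With tumors, *Cxcr3* differed by 1.0 ± 0.89 (SE) in CDPs and 0.85 ± 0.89 in MDPs (limma adjusted p = 0.726 and 0.692).

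CXCR5 takes B cells and follicular helper T cells into B cell follicles. *Cxcr5* was above background on none of the 16 arrays, at −7.61 to −7.27. Of the B cell genes, *Ms4a1* was above background on none of them either, and *Cd79b* was on all 16.

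**Figure D3:**
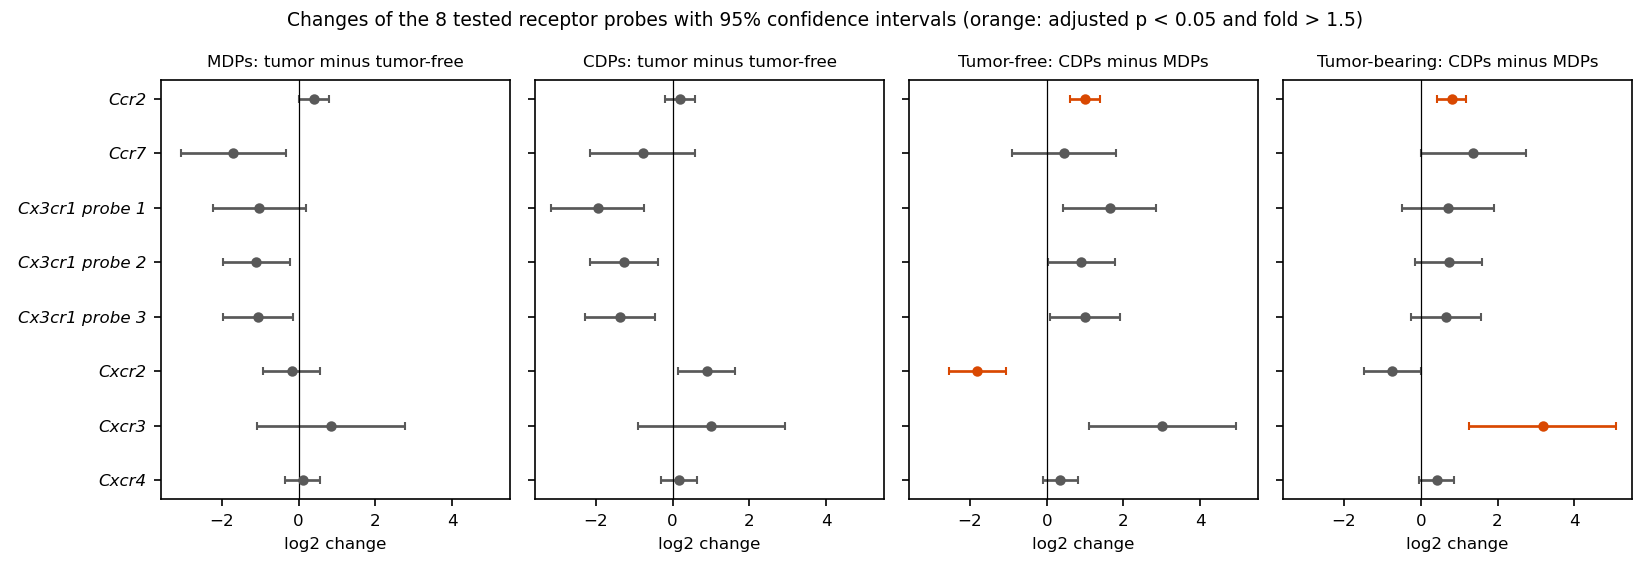
Log2 changes (horizontal axes) of the 8 tested receptor probes with 95% confidence intervals from the limma fit: tumor-bearing minus tumor-free in MDPs and in CDPs, then CDPs minus MDPs without and with tumors. Orange marks the called probes, which are *Ccr2* and *Cxcr2* without tumors and *Ccr2* and *Cxcr3* with tumors; none is called in the tumor comparisons.

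Counted over the 6 receptors tested, CDPs and MDPs of tumor-free mice did not overlap for 4 (*Ccr2*, *Cx3cr1*, *Cxcr2* and *Cxcr3*, 6 of 8 probes, against 13.3% of all probes). With tumors the only receptor without overlap was *Ccr2* (1 of 8 probes, 14.0% of all probes). From tumor-free to tumor-bearing MDPs no receptor had groups apart (0 of 8, 5.19% of all probes). The median change over the 8 probes was 0.95 for CDPs against MDPs without tumors and 0.72 with tumors, beside 0.02 and 0.19 over all tested probes, and 7 of the 8 probes were on the higher side in each. For the tumor change it was −0.31 in CDPs and −0.60 in MDPs, beside 0.08 and −0.12 over all probes. *Cx3cr1* supplied 3 of these probes, all lower with tumors and all higher in CDPs than in MDPs in both states. It so weighs on the tumor medians, on the medians between progenitors and on the 7 of 8 probes higher in CDPs. Among the other receptors in CDPs, *Ccr7* was lower (−0.78), and *Ccr2* (0.20), *Cxcr2* (0.89), *Cxcr3* (1.0) and *Cxcr4* (0.17) were higher. In MDPs *Ccr7* (−1.70) and *Cxcr2* (−0.18) were lower, and *Ccr2* (0.40), *Cxcr3* (0.85) and *Cxcr4* (0.11) were higher. Scaling matters to these shifts, as quantile normalization brought the medians over all probes to between 0.00 and 0.03 in size. It turned the sign of no receptor in the comparisons of CDPs with MDPs.

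Of 15 other chemokine receptors, 9 had a tested probe. Of these, 1 was called, *Ccr1l1*, a mouse gene close in sequence to *Ccr1* whose probe lies beside that of *Ccr1* on chromosome 9 (123892291-123892350). It was called in CDPs of tumor-bearing against tumor-free mice (1 of 9 genes, against 1.80% of all probes). It was also called between CDPs and MDPs of tumor-bearing mice (1 of 9, against 7.26% of all probes). *Ccr1l1* read −4.57, −5.02, −4.70 and −5.30 in CDPs of tumor-bearing mice, the first 3 of them above background, and −7.45, −7.59, −7.31 and −6.32 in CDPs of tumor-free mice, none above background. It was at least 1.31-fold higher with tumors (limma adjusted p = 0.000522), and at least 1.23-fold higher than in MDPs of tumor-bearing mice (adjusted p = 3.94e-05), both bounds taken against the lowest signal that was well above background on each array of the dimmer group. *Ccr1l1* entered the test only through CDPs of tumor-bearing mice, the group in which it was high. These p-values set that group against arrays at background and are not independent of that choice. The MDPs read −7.61 to −7.24 and were above background on no array. The probes of *Ccr1* and *Ccr1l1* share no more than 7 bases in a row.

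Over these 9 other receptors, *Ccr1l1* included, the median change with tumors was 0.36 in CDPs and −0.26 in MDPs, beside 0.08 and −0.12 over all tested probes. CDPs were higher than MDPs for 8 of 9 in either state. The median differences were 0.52 without and 0.77 with tumors, beside 0.02 and 0.19 over all tested probes. A list of 22 ligands for the 9 receptors had 14 genes tested, *Cxcl12*, the CXCR4 ligand, among them. *Ccl6*, a ligand of CCR1, was the 1 gene called in that list, and it was called in both comparisons of the progenitors. Of all probes, 6.10% were called without tumors and 7.26% with tumors, so 1 of 14 genes is near the share over all probes. *Ccl6* read 3.88, 3.23, 3.38 and 3.16 in CDPs against 2.41, 1.90, 2.47 and 2.06 in MDPs of tumor-free mice. In tumor-bearing mice it read 3.54, 2.90, 3.03 and 3.30 against 2.13, 2.01, 2.0 and 1.86. It was higher in CDPs by 1.20 ± 0.20 (SE) in each state (limma adjusted p = 0.00201 and 0.00215), and the groups did not overlap. No ligand was called in a tumor comparison, against 1.80% of all probes in CDPs and 0.0656% in MDPs. In CDPs 11 of 14 were on the higher side (median 0.26, beside 0.08 over all tested probes). *Cx3cl1*, among these 11, entered the test only through CDPs of tumor-bearing mice, so its direction is not independent of that choice. In MDPs 13 of 14 were on the lower side (median −0.64, beside −0.12 over all tested probes).

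**Figure D4:**
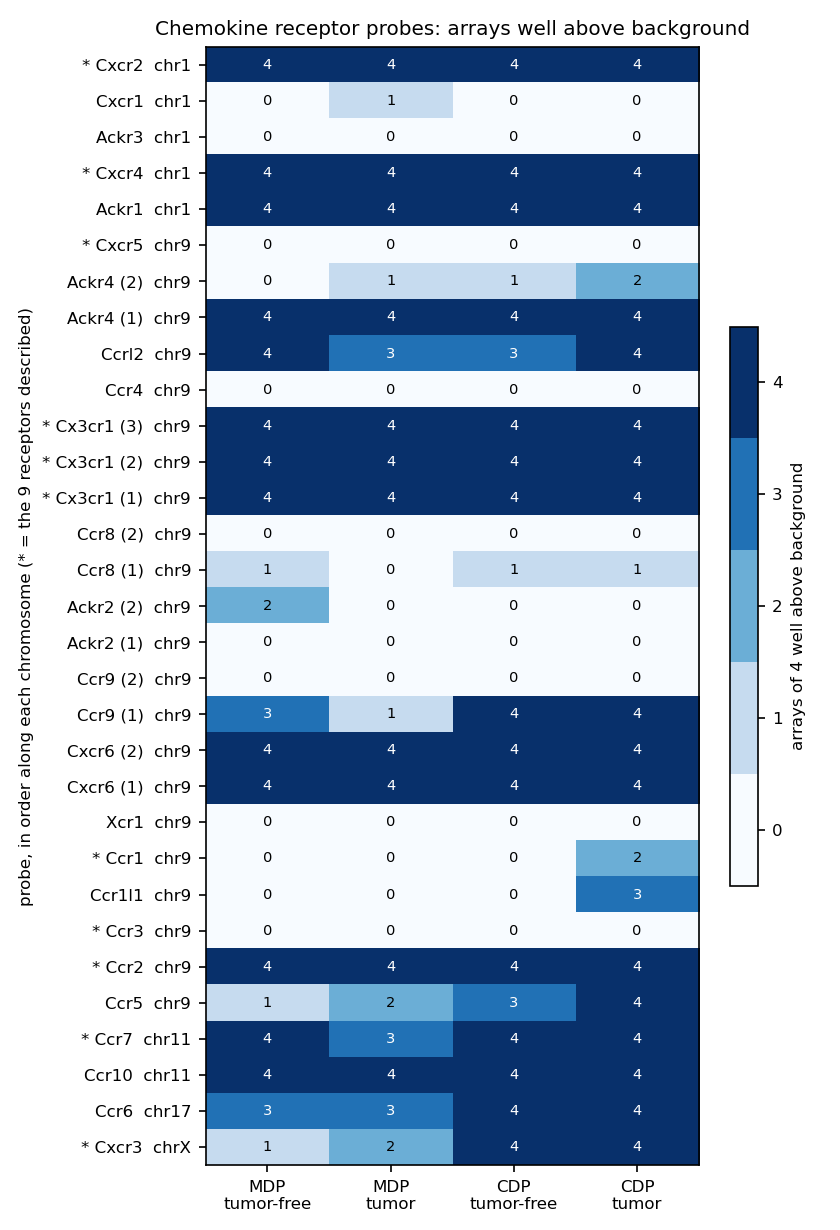
Number of arrays, of 4 in each group, on which each probe for the 9 receptors (starred) and 15 other chemokine receptors was well above background, in order along each chromosome. *Ccr1* and *Ccr1l1* are above background in CDPs of tumor-bearing mice alone, on 2 and 3 arrays.

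All 32 genes of a list for receptor signaling and shut-off were tested. Of these, 2 fell in CDPs with tumors, against 1.80% of all probes called. *Grk3* (named *Adrbk2* on the array), a kinase that desensitizes such receptors, read 1.20, 1.19, 1.08 and 1.17 in CDPs of tumor-free mice and 0.68, 0.02, −0.06 and 0.31 in those of tumor-bearing mice, without overlap (change −0.92 ± 0.17 SE, limma adjusted p = 0.0176). *Plcb2*, a phospholipase C that G beta-gamma activates, read 0.41, 0.55, 0.31 and 1.04 and then −0.63, −0.10, −0.29 and −0.17 (−0.87 ± 0.21, adjusted p = 0.0497). None of the 32 was called in MDPs (*Grk3* −0.25, *Plcb2* −0.17), and none for the difference of the tumor changes (limma adjusted p = 0.748 for both).

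Between the progenitors of tumor-free mice, 4 of the 32 signaling genes were higher in CDPs and none was lower, against 2.94% and 3.16% of all probes. They were *Grk3* (1.08 ± 0.17 SE, limma adjusted p = 0.00183), *Pik3r5* and *Pik3r6*, adaptors of the gamma phosphoinositide 3-kinase (1.05 ± 0.18, adjusted p = 0.00301, and 0.78 ± 0.20, adjusted p = 0.0268), and *Prex1*, an exchange factor for Rac (0.60 ± 0.14, adjusted p = 0.0165). With tumors 8 were higher in CDPs and 1 was lower, against 7.26% of all probes called and 3.56% called higher. The largest were *Grk5*, another receptor kinase, which was above background on all 4 CDP arrays and on no MDP array (at least 2.17-fold, limma adjusted p = 0.0174), *Pik3r5* (1.60 ± 0.18, adjusted p = 0.000118), *Pik3r6* (1.08 ± 0.20, adjusted p = 0.00415) and *Rgs14* (0.92 ± 0.26, adjusted p = 0.0475), and the lower one was *Plcb2* (−0.80 ± 0.21, adjusted p = 0.0312). *Grk5* entered the test only through CDPs, where it was higher, so its p-value is not independent of that choice. Over the list the median difference between CDPs and MDPs was 0.33 without tumors and 0.41 with tumors, beside 0.02 and 0.19 over all tested probes.

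**Figure D5:**
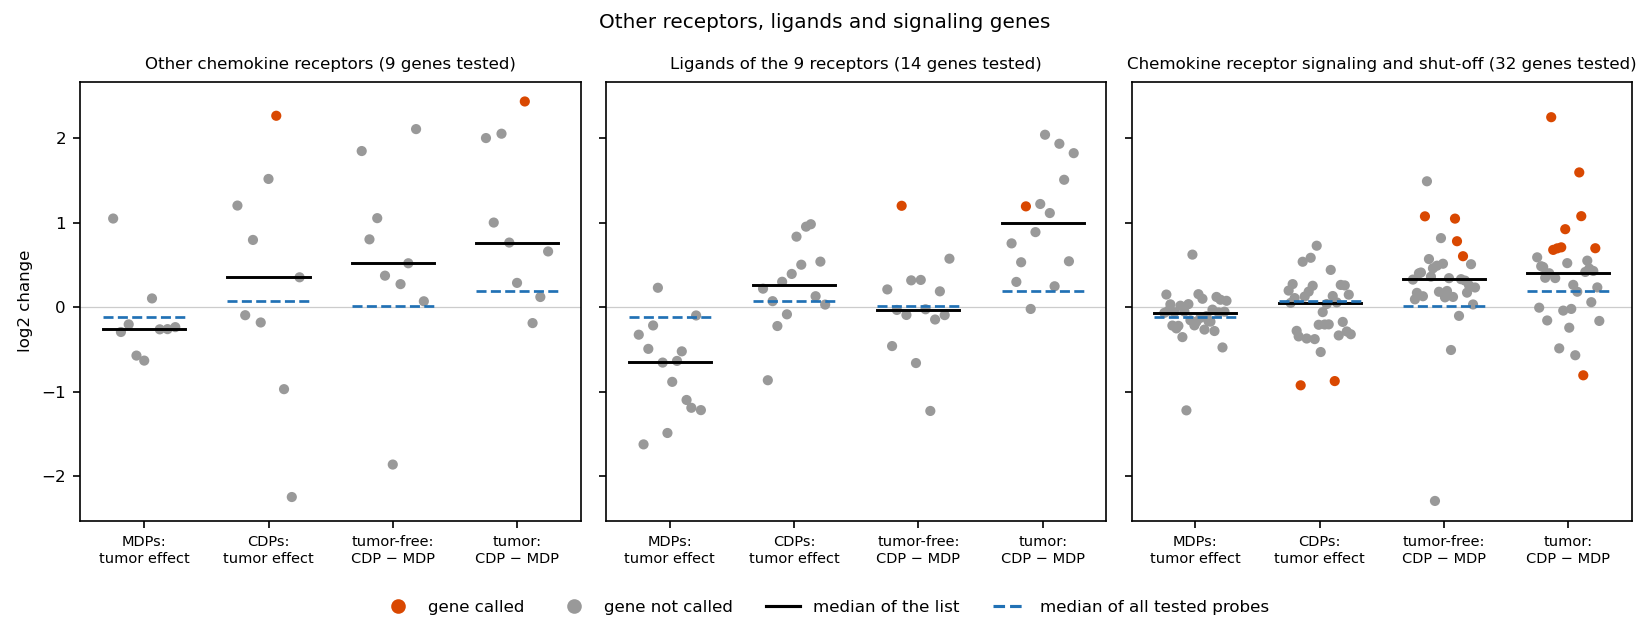
Log2 changes (vertical axis) of each tested gene of 3 lists in 4 comparisons, 1 point per gene, with called genes in orange, the list median as a solid line and the median of all tested probes as a dashed line. The single called receptor is *Ccr1l1*, the single called ligand is *Ccl6*, and the called signaling genes lie mostly above 0 between CDPs and MDPs.

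Finally, the profiles most like those of the 5 receptors above background on at least 12 arrays were looked up among 17078 other genes, by Pearson r over the 16 arrays. These r are descriptions, since all genes share the arrays, groups and slides. For *Cx3cr1* (A_55_P2007964) they were *Tmem194b* (r = 0.94), *Trim34a* (0.93) and *Clec9a* (0.93), a lectin of type 1 conventional DCs, and *Clec9a* ranked first once the slide means were removed (0.96). For *Ccr2* they were *Anxa2* (0.97), *Gpr141* (0.97) and *Klf4* (0.95), a transcription factor of monocytes. *Cxcr2* was followed most closely by *Tmem201* (0.92), *Pcsk4* (0.92) and *Cables1* (0.91). *Cxcr4* was most like *H2-D1* (0.95), *Hist1h2ab* (0.94) and *Tagln2* (0.92), and *Ccr7* most like *Itga2b* (0.93), the platelet integrin chain, *Lpar1* (0.92) and *2010002M12Rik* (0.92). Of the 3 genes for each receptor, all 3 stayed among the 20 closest after slide means were removed for *Cxcr2* and *Cxcr4*, 2 for *Ccr2* and *Cx3cr1*, and 1 for *Ccr7*.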

How the data were processed

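Per the file headers, the deposited spot tables came from Agilent Feature Extraction 11.5.1.1, with probe positions on mm9. The processed signal, as deposited, is an intensity from which spatial trend and background had been removed within each array, without scaling between arrays; the mean and background intensity and flags were deposited with it. The authors also deposited log2 values of 26793 probes, used as an alternative; each column correlated with its own array's log2 processed signal at r of 0.994 or more, column medians were 10.2 to 10.3, and how it was scaled between arrays is not given in the sources used here.

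Control and outlier spots were left out, log2 signals were centered on each array's 75th percentile, and spots of a probe were averaged. limma 3.58.1 (R 4.3.3, data.table version 1.17.8) fitted 4 group means on all 16 arrays (median SE of a change 0.306). The number of arrays limits precision, and p-values measure the spread between samples, which are pools of 2 mice. The fit was tested on simulated data. For a gene of a list, the tested probe with the highest mean was used. Genes were named from lists if called (up to 5 largest per list and comparison), with 3 like genes per receptor. The receptors and lists were chosen with earlier results of these data known. *Ccl21a*, *Ly6c2* and *Ly6g* were not found by symbol, and some other marker genes are not reported here.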

Additional observations from a re-analysis of the deposited data

Results flagged for a closer look

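Within the 44 sets of 4 arrays formed by the 11 receptor probes and 4 groups, 7 held an array far from the other 3 by Dixon's ratio, the gap to the nearest array over the whole range of the group. Chance gives about 1 such set in 20. Arrays not above background were included.

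For *Ccr2*, replicate 3 of the tumor-free MDPs stood at 0.67 against 0.30 for the nearest array (ratio 0.913). For *Ccr7*, replicate 4 of the tumor-free CDPs was at −3.21 against −2.02 (ratio 0.886), and replicate 2 of the tumor-free MDPs at −3.23 against −2.59 (ratio 0.842). For *Cx3cr1* probe A_52_P99810, replicate 3 of the tumor-bearing MDPs was at −4.81 against −2.39 (ratio 0.876). For *Cxcr2*, replicate 3 of the tumor-bearing CDPs was at −1.10 against −2.18 (ratio 0.897), and replicate 2 of the tumor-free MDPs at −1.34 against −0.96 (ratio 0.833). For *Cxcr4*, replicate 4 of the tumor-free MDPs was at 5.01 against 4.55 (ratio 0.859).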

How the results depend on the processing

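*Ccr2* between CDPs and MDPs of tumor-free mice stayed called in all 20 alternatives, with log2 differences of 0.93 to 1.1. Counts of receptor probes called moved as follows. In CDPs with tumors the count of 0 became 1 with normexp and 3 with the unadjusted t-test. Between the progenitors of tumor-free mice 2 became 6 with only the groups compared and with the unadjusted t-test. With tumors 2 became 1 with quantile normalization, normexp, no filter, probes above background on all 16 arrays, the deposited value table and the slide as a block, and 0 with only the groups compared and with the adjusted t-test. Leaving out 1 sample gave 0, 0, 0, 2 to 3 and 0 to 2 receptor probes in CDPs with tumors, MDPs with tumors, the difference of these changes, and CDPs against MDPs without and with tumors.

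Counts over all probes moved too. In CDPs with tumors 494 became 1248 with the slide block, 56 with only the groups compared, 2081 and 3 with the unadjusted and adjusted t-test, and 155 to 581 with 1 sample left out. In MDPs 18 became 11 (quantile, where 72.7% of calls were higher against 50% before), 6 (normexp), 10 (no filter, and probes on all 16 arrays), 7 (value table), 44 (slide block), 5 (only the groups compared), 1026 and 1 (t-tests) and 1 to 46 with 1 sample left out. For the difference, 4 became 0 (quantile, normexp, value table), 1 (all 16 arrays), 2 (slide block) and 3 to 7. Between the progenitors of tumor-free mice 1673 became 2925 (slide block), 2993 (unadjusted t-test) and 1117 to 1504, and with tumors 1993 became 800 (only the groups compared), 4127 and 608 (t-tests) and 1127 to 3288.

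Over all alternatives, 769 values of single receptor probes kept their direction and side of the threshold, 17 became called, 17 lost the call and 27 turned sign. Signs turned only in changes that were not called. The *Cxcr4* change in CDPs was −0.12 with quantile normalization and the value table. In MDPs *Cxcr3* was −0.17 with normexp, *Cxcr2* 0.046 with the slide block, and with 1 sample left out *Cxcr2* was −0.28 to 0.012 and *Cxcr4* −0.013 to 0.23. The difference of the tumor changes turned for *Cxcr4* (−0.20 with quantile normalization and the value table, −0.14 with the slide block, −0.067 to 0.18 with 1 sample left out), *Cx3cr1* A_55_P2007964 (0.22, then −0.57 to 0.16), A_55_P2054362 (0.12, then −0.72 to 0.059) and *Cxcr3* (−0.43, then −0.46 to 0.90). The causes were not tested.

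A replicate block, with the sample number as a block, brought the count of all probes in MDPs with tumors from 18 to 10, and the receptor count between progenitors of tumor-bearing mice from 2 to 1. The deviations of same-numbered samples did not correlate above 0.1 in every pair of any comparison: r was 0.02 to 0.48 for CDPs with and without tumors, −0.56 to 0.44 for MDPs, −0.63 to 0.06 between progenitors of tumor-free mice and −0.05 to 0.46 between those of tumor-bearing mice. Whether MDPs and CDPs of 1 number came from the same mice is not given in the sources used here, so the numbers were not taken as pairs. With 4 arrays a group, and *Ccr1*, *Ccr3* and *Cxcr5* at or near background, changes in the dim receptors are poorly bounded.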
